A study of Mus musculus with 31 samples.

Results

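The 39 genes described here encode plasma proteins of blood coagulation and complement and 1 complement receptor. They were chosen by name and function, with earlier results of these data known, from 31172 mouse genes quantified in the livers of 31 *hFIX-R29X* mice. They fall into vitamin K-dependent factors, other factors of the clotting cascade and contact system, fibrinogen chains, inhibitors and fibrinolysis, the start of complement, C3 with the alternative pathway, complement regulators, terminal complement and the receptor *C5ar1*.

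All mice carried a human factor IX minigene with the R29X nonsense mutation, driven by the human transthyretin promoter in hepatocytes, and lacked mouse factor IX. At 8 to 14 weeks of age they received 6 subcutaneous doses at intervals of 5 days by the stated protocol, although the dose entry of the labels reads weekly, and the liver was collected 48 h later than the last of them. The groups were DPBS, the vehicle (n = 11, 6 female and 5 male), Control-GalNAc-ASO at 15 mg/kg (n = 4, 2 female and 2 male) or 20 mg/kg (n = 6, 3 female and 3 male), and *Upf3b*-GalNAc-ASO at 10 mg/kg or 20 mg/kg (n = 5 each, 2 female and 3 male). An ASO is a short antisense oligonucleotide that directs RNase H to its target mRNA, GalNAc is a sugar that carries it into hepatocytes, and *Upf3b* encodes a factor of nonsense-mediated mRNA decay. The lower dose pair therefore differed in the amount of ASO as well as in its sequence.

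Hepatocytes secrete most of the proteins encoded by these genes. In coagulation, a chain of serine proteases leads to thrombin, which turns soluble fibrinogen into fibrin, while antithrombin, protein C and plasmin limit or dissolve the clot. In complement, the lectin, classical and alternative pathways meet at C3, and C5 to C9 then assemble into a pore in the target membrane. The mouse liver is also known for wide differences in gene expression between sexes, many of them set by growth hormone through the transcription factor STAT5.

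The sequences that bear on the comparisons are the ASOs, shown because they are the agents, and the upstream regions of 6 genes that differed between groups or sexes. No member transcript was complementary to more than 10 consecutive bases of the *Upf3b*-ASO or 9 of the Control-ASO, against all 16 bases of the *Upf3b*-ASO in *Upf3b* itself.

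Upf3b-ASO: ggatatagatgtaacg
Control-ASO: ggccaatacgccgtca

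Each region is given 5′ to 3′ on the strand of its gene and holds the 200 bases that end 51 bases before the start of transcription in RefSeq (GRCm38.p6). Capitals mark a match to TTCNNNGAA, a motif of STAT5, or to TTGCNNAA, a motif of C/EBP factors, on either strand. *C6* (chr15:4726960-4727159, plus strand), *C8a* (chr4:104876449-104876648, minus strand), *C8b* (chr4:104766067-104766266, plus strand) and *C9* (chr15:6445096-6445295, plus strand) are the terminal complement genes that were higher in males. *Fgb* (chr3:83049914-83050113, minus strand) and *Klkb1* (chr8:45294886-45295085, minus strand) were lower with *Upf3b*-GalNAc-ASO than with Control-GalNAc-ASO. Neither passed the test against DPBS.

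C6: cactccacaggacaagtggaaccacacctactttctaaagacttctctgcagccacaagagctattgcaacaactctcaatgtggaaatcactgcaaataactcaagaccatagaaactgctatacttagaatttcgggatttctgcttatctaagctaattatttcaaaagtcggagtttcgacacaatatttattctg
C8a: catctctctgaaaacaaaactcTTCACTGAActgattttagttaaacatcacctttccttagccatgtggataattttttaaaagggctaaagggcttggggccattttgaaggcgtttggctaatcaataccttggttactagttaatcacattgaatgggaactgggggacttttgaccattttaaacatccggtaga
C8b: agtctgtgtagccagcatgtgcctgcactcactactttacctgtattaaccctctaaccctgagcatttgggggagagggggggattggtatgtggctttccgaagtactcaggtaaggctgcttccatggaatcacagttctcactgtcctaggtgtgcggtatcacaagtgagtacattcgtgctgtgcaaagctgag
C9: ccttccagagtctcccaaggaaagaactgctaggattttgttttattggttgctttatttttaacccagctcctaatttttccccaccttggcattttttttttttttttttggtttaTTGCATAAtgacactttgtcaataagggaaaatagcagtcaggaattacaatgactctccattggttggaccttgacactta
Fgb: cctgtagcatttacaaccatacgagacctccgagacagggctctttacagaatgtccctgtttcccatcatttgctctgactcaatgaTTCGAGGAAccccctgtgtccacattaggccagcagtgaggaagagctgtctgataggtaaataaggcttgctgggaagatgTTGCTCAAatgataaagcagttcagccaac
Klkb1: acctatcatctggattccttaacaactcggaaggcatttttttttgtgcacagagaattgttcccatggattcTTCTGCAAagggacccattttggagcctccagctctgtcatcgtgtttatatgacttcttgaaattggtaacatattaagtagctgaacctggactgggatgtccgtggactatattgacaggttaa

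In the 250 bases before the start, the STAT5 motif was present in 7.02% and the C/EBP motif in 9.56% of 32851 mouse promoters. Of the 32 promoters found for 30 members, 6 held the STAT5 motif (*C8a*, *F9*, *Fga*, *Fgb*, *Masp2* and *Pros1*) and 9 held the C/EBP motif (*C1s1*, *C3*, *C9*, *F11*, *F9*, *Fga*, *Fgb*, *Klkb1* and *Kng2*). The HNF4A motif CAAAGTCCA was present in 0.384% of all promoters and in 0 of these 32. Of the 4 genes that were higher in males, *C8a* alone held the STAT5 motif, 228 bases before its start. These matches are letters in a window and are not measured binding.

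Expression was measured as TPM, a unit that sums to the same total in every mouse, and the files give from 1020673 to 7391607 reads per mouse, so that 3 reads correspond to 0.406 to 2.94 TPM. The values were not divided by transcript length, so a level below is a share of reads and says nothing of how many transcripts 1 gene has against another. As a check of the labels, mean *Upf3b* with *Upf3b*-GalNAc-ASO was 37.3% of that with the control ASO in the lower dose pair. There 4 of 5 mice were below every control. The log2 fold change, log2FC, was -1.73 with a standard error, SE, of 0.61, and it did not pass in limma (adjusted p = 0.211). In the higher dose pair mean *Upf3b* was 7.04% of that with the control ASO (log2FC -3.87, SE 0.40, adjusted p = 1.59e-05). All 5 mice there were below every control. The exception in the lower dose pair was the library labelled replicate 3 of *Upf3b*-GalNAc-ASO at 10 mg/kg, a female. It had 53.7 TPM of *Upf3b*, within the 27.1 to 78.7 TPM of its controls, while the other 4 mice of the group had 3.95 to 23.3 TPM, so its target gene goes against its label. This library also had the fewest reads of all. It had the lowest value of its group for 23 of 36 members, 63.9%, against 38.3% of all genes, and its members summed to 13133 TPM against 17801 to 25539 TPM in the other 4 mice. Without this library, the log2FC over both dose pairs was -1.13 for *Klkb1*, -0.80 for *Fgb* and -1.003 for *F5*, and that of males against females was -0.76 for *C3*, 1.81 for *C8b* and 1.49 for *C9*, all past the threshold, as with it. Because whole liver was used, fewer cells of a type and less RNA per cell cannot be told apart.

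The 9 hepatocyte markers examined summed to between 22380 and 73711 TPM, and none was absent. *Tat* was the only one that differed with *Upf3b*-GalNAc-ASO over both dose pairs, where it was lower, and the median log2FC of the 9 was -0.25, the same as that of the members tested. Of all 9797 genes tested over both dose pairs, 3.64% were lower and 2.4% higher. Of 7 endothelial markers, *Pecam1* was higher at 20 mg/kg and over both dose pairs, and at 20 mg/kg it was the only 1 with a positive log2FC, with a median of -0.53 over the 7. Their summed level there was 1544 to 2242 TPM with *Upf3b*-GalNAc-ASO and 621 to 1676 TPM with the control ASO. No tested marker of Kupffer cells (7 of 8 tested), stellate cells (4 of 6) or red cells (5 of 5) passed over both dose pairs. Nor did any of platelets (1 of 5), neutrophils (1 of 5), lymphocytes (1 of 6) or bile ducts (2 of 5), where few markers reached the filter. The part of cell content in the results below was not tested.

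Levels of the 39 members ranged widely. Over all mice, the median was 2603 TPM for *F2*, prothrombin, 1997 TPM for *Fgb*, the fibrinogen beta chain, and 1668 TPM for *Serpinc1*, antithrombin, each the gene with the largest share of reads in its role. In the cascade and contact system that gene was *Kng1*, high molecular weight kininogen, at 1262 TPM. In the roles of complement the largest shares were 2638 TPM for *C3*, 759 TPM for *Mbl2*, a mannose-binding lectin, 246 TPM for *Serping1*, the C1 inhibitor, and 353 TPM for *C8b*. Together the members made up at most 2.84% of all TPM in any mouse. Of the 39 members, 36 reached a median of 5 TPM in at least 1 group of every comparison and were tested with limma. *F9*, *Masp1*, a protease of the lectin pathway, and *C5ar1*, the C5a receptor of myeloid cells, did not reach it.

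*F9*, on the X chromosome (GRCm38, 59999464 to 60030759), is the gene that these mice lack, and human minigene transcripts were not in the index. Control-GalNAc-ASO treated mice at 15 mg/kg had 0, 0, 0.827 and 0 TPM of *F9*, and *Upf3b*-GalNAc-ASO treated mice at 10 mg/kg had 0, 3.23, 0.980, 4.56 and 2.32 TPM, where the 0.980 TPM is 1 read of the library labelled replicate 3. The 3 treated males were above both control males, and the groups rested on 44 and 3 reads (2.22 ± 1.80 TPM, n = 5, against 0.207 ± 0.413 TPM, n = 4, exact permutation test, two-sided, p = 0.0794, adjusted p = 0.357). Control mice at 20 mg/kg had from 0 to 6.09 TPM, with a median of 0. *Upf3b*-GalNAc-ASO treated mice at 20 mg/kg had 0.213, 6.14, 5.07, 0 and 0.616 TPM. The DPBS-treated mice had from 0 to 2.58 TPM. The values at 20 mg/kg rest on few reads too, 47 in the 5 *Upf3b*-GalNAc-ASO and 28 in the 6 Control-GalNAc-ASO treated mice at 20 mg/kg, and the groups overlapped (exact permutation test, two-sided, p = 0.437). Of 143 such reads in all, 119 were in males and 24 in females, or 1.79 ± 2.04 TPM (n = 16) against 0.643 ± 1.55 TPM (n = 15) per mouse (permutation test, two-sided, p = 0.0534). *Masp1* was 0.0410 ± 0.0918 TPM at 20 mg/kg of *Upf3b*-GalNAc-ASO and 1.23 ± 2.06 TPM in its controls (exact permutation test, p = 0.242), and *C5ar1* was between 0 and 6.61 TPM in every mouse. None of the 9 permutation tests of these 3 genes had an adjusted p below 0.357. Those between treatment groups took no account of sex, so they are not comparable with the sex-adjusted limma tests.

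The first question was whether lowering *Upf3b* moved the expression of the clotting and complement genes, and each *Upf3b*-GalNAc-ASO group was compared with its Control-GalNAc-ASO group. At 10 mg/kg, 0 of 36 members passed an adjusted p of 0.05 in limma, where 0.295% of 9166 genes did, and 8 members had an unadjusted p under 0.05, as did 1446 of the 9166 genes. *Upf3b* itself, the target, did not pass at that dose either (limma, adjusted p = 0.211). At 20 mg/kg, *Klkb1* was lower and no member was higher, where 1.59% of 9376 genes were lower and 0.928% higher. Over both dose pairs, *Klkb1*, *Fgb* and *F5* were lower and *Kng1* was higher, where 3.64% of 9797 genes were lower and 2.4% higher. This last fit uses the same mice as the first 2 and is not independent of them. The median log2FC of the 36 members was -0.28 at 10 mg/kg against -0.03 for all genes tested, and -0.09 against -0.12 at 20 mg/kg. At 10 mg/kg all 9 hepatocyte markers had a negative log2FC as well, with a median of -0.38 and *Tat* past the threshold, and at 20 mg/kg 3 of the 9 were positive and the median was -0.05. Without the library labelled replicate 3 at 10 mg/kg, whose *Upf3b* was not below its controls, the members' median was -0.15 at 10 mg/kg, with 0 members called, and over both dose pairs 3 members were higher, *Kng1*, *Plg* and *Masp2*, and 4 lower, *Klkb1*, *Fgb*, *F5* and *C8a*. The share of all genes called without that library is not given here, so these counts cannot be read as particular to the members.

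**Figure D1:**
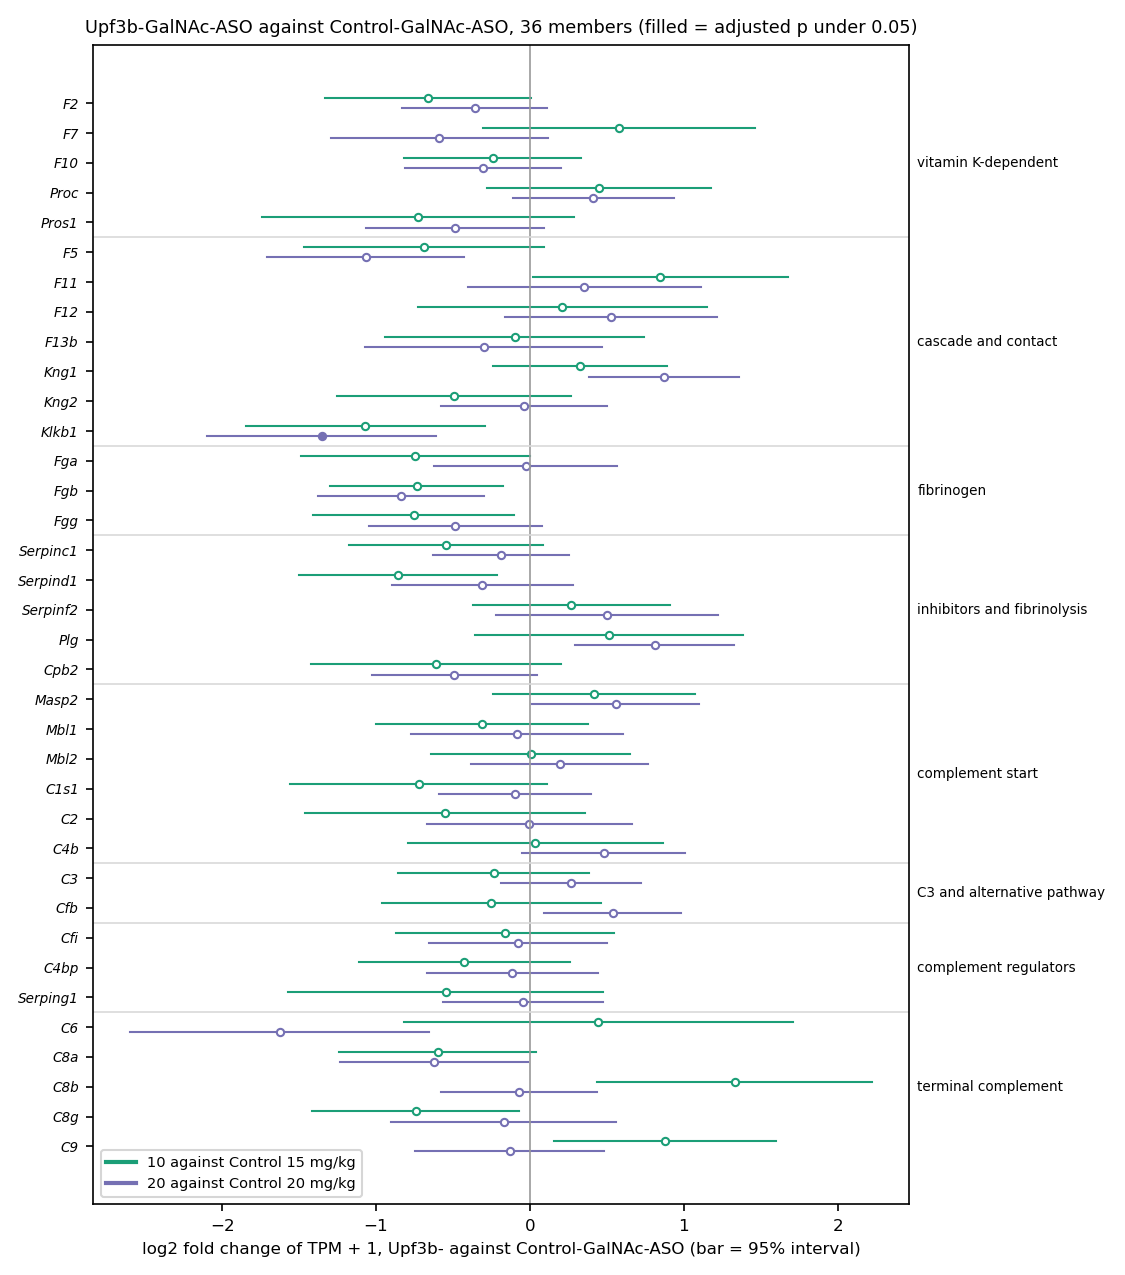
The x axis gives the log2FC of TPM + 1 between *Upf3b*-GalNAc-ASO and Control-GalNAc-ASO treated mice for each of 36 members, grouped by role, with its 95% interval, in green for the lower and in purple for the higher dose pair. The single filled point, *Klkb1* at -1.35, is the only one with an adjusted p under 0.05. *Klkb1*, *F5* and the fibrinogen chains lie left of 0 in both pairs, as do many other members. In all, 23 of the 36 members lie left of 0 in the lower pair and 25 in the higher.

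*Klkb1* encodes prekallikrein, the protease of the contact system that activates factor XII and frees bradykinin from kininogen. Control-GalNAc-ASO treated mice had 54.1, 74.1, 101.2 and 53.5 TPM at 15 mg/kg, and *Upf3b*-GalNAc-ASO treated mice had 18.2, 71.7, 14.7, 70.1 and 37.9 TPM at 10 mg/kg. At 20 mg/kg, the control mice lay between 45.4 and 87.1 TPM with a median of 73.4, and the *Upf3b*-GalNAc-ASO treated mice had 22.6, 12.9, 58.5, 22.5 and 36.3 TPM. The females at 10 mg/kg, which include the library labelled replicate 3 at 14.7 TPM, were the lowest of that group, and 1 of the 5 mice at 20 mg/kg lay within the range of its controls. The log2FC was -1.07 (SE 0.36, adjusted p = 0.197) at 10 mg/kg and -1.35 (SE 0.36, adjusted p = 0.0477) at 20 mg/kg, and -1.23 (SE 0.28, adjusted p = 0.00769) over both. The call at 20 mg/kg was lost under 8 of 12 other settings of the fit. It held without Control-GalNAc-ASO replicate 4 or *Upf3b*-GalNAc-ASO replicate 4 and was lost without each of the other 9 mice (adjusted p up to 0.134), whereas the call over both held without any 1 mouse (adjusted p up to 0.0186). Of its 31-base words, 43.0% are shared with the gene model *Gm45753*, so reads of the 2 could be split.

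*F5* encodes factor V, the cofactor with which factor Xa turns prothrombin into thrombin. Its TPM was 446, 191, 352 and 237 with the control ASO at 15 mg/kg, and 114, 178, 308, 215 and 129 with *Upf3b*-GalNAc-ASO at 10 mg/kg. With 20 mg/kg it was between 194 and 351 TPM (median 277) in controls, and 81.4, 71.0, 177, 173 and 203 TPM with *Upf3b*-GalNAc-ASO. All but 1 of the latter lay below every control, whereas the groups at the lower doses overlapped widely. The log2FC was -0.69 (SE 0.36, adjusted p = 0.371), -1.07 (SE 0.31, adjusted p = 0.0669) and -0.90 (SE 0.24, adjusted p = 0.0224) at 10 mg/kg, at 20 mg/kg and over both. The call over both was lost without *Upf3b*-GalNAc-ASO replicate 1 at 20 mg/kg (adjusted p = 0.0628).

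*Kng1*, whose product carries prekallikrein and factor XI and is the source of bradykinin, moved the other way. It was 1475, 1325, 1231 and 1025 TPM with the control ASO at 15 mg/kg and 1893, 1304, 1508, 1862 and 1340 TPM with *Upf3b*-GalNAc-ASO at 10 mg/kg. At 20 mg/kg, controls lay between 629 and 1262 TPM with a median of 902, and *Upf3b*-GalNAc-ASO treated mice had 1724, 1464, 1489, 1949 and 1628 TPM. The groups at 20 mg/kg did not overlap, as for 1.65% of all genes in that direction, and those at the lower doses did. The log2FC was 0.33 (SE 0.27, adjusted p = 0.565) at 10 mg/kg, 0.87 (SE 0.23, adjusted p = 0.0506) at 20 mg/kg and 0.63 (SE 0.17, adjusted p = 0.0281) over both. The last call was lost without Control-GalNAc-ASO replicate 3, 5 or 6 or *Upf3b*-GalNAc-ASO replicate 1 or 5 at 20 mg/kg (adjusted p up to 0.0610). *Kng1* shares 26.5% of its 31-base words with its paralog *Kng2*, which had log2FCs of -0.49 and -0.04, so their counts are uncertain.

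**Figure D2:**
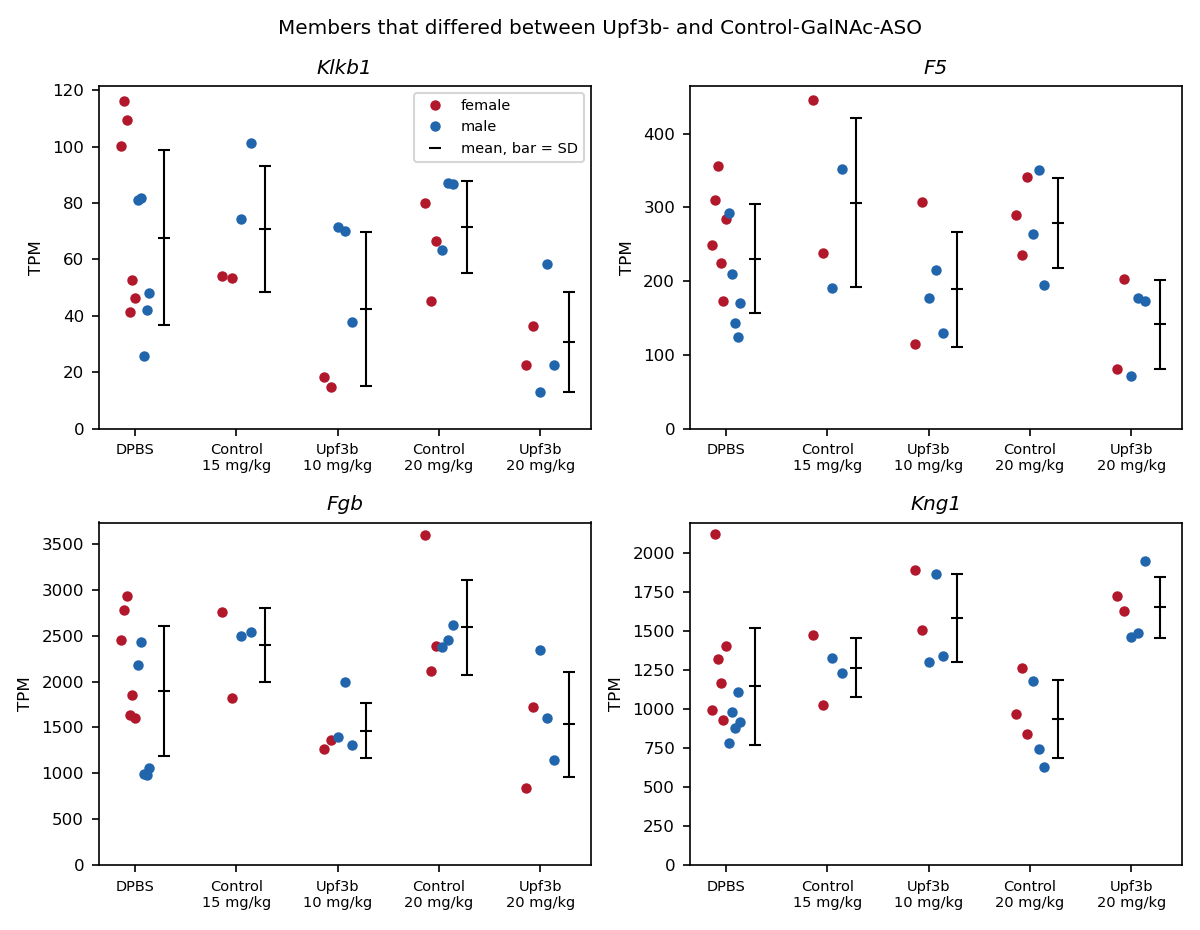
TPM of *Klkb1*, *F5*, *Fgb* and *Kng1* in each mouse (red, female; blue, male) of the 5 groups, with the mean and SD of the group as a black bar. *Klkb1*, *F5* and *Fgb* were lower in *Upf3b*-GalNAc-ASO treated than in control ASO treated mice, with means of 30.6 against 71.6 TPM for *Klkb1* at 20 mg/kg, and *Kng1* was higher there at 1651 against 936 TPM.

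*F11*, factor XI, lies next to *Klkb1* on chromosome 8 (GRCm38, minus strand, 45241174 to 45262031, against 45266689 to 45294859). At 10 mg/kg of *Upf3b*-GalNAc-ASO it was 34.8, 40.1, 38.2, 34.5 and 58.8 TPM against 24.7, 11.7, 29.2 and 28.4 TPM, with no overlap, as for 2.08% of all genes. Its log2FC of 0.85 (SE 0.39) had an adjusted p of 0.306, and at 20 mg/kg it was 0.35 (SE 0.36, adjusted p = 0.638). The values of these neighbours were thus of opposite sign at both doses. Of the other factors of the cascade, *F12* and *F13b* had log2FCs between -0.30 and 0.53, with no call.

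Fibrinogen is built from 3 chains whose genes lie together on chromosome 3, *Fgg* (83007724 to 83015049) and *Fga* (83026076 to 83033627) on the plus strand and *Fgb* (83040141 to 83049863) on the minus strand. *Fgb* was 2754, 2498, 2538 and 1821 TPM with the control ASO at 15 mg/kg and 1269, 1394, 1365, 1997 and 1305 TPM with *Upf3b*-GalNAc-ASO at 10 mg/kg. With 20 mg/kg it was between 2117 and 3597 TPM (median 2422) in controls and 843, 2347, 1598, 1145 and 1727 TPM with *Upf3b*-GalNAc-ASO. In each dose pair, 4 of the 5 treated mice were below every control. The log2FC was -0.74 (SE 0.26, adjusted p = 0.217), -0.84 (SE 0.26, adjusted p = 0.0851) and -0.79 (SE 0.18, adjusted p = 0.00818) at 10 mg/kg, at 20 mg/kg and over both, and the last held without any 1 mouse. *Fgg* was 636 ± 199 TPM against 1013 ± 197 TPM in the lower pair and 822 ± 311 TPM against 1095 ± 290 TPM in the higher, a log2FC of -0.61 (SE 0.20, adjusted p = 0.0677) over both. *Fga*, at -0.74 and -0.03 in the 2 pairs, was -0.35 (SE 0.23, adjusted p = 0.390) over both.

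*Klkb1* and *Fgb* were also the only members for which every *Upf3b*-GalNAc-ASO treated mouse lay below every control mouse of its own sex at both dose pairs, as 0.786% of genes did. No member was above them in this way.

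The fibrinogen chains varied together from mouse to mouse. After group and sex means were removed, *Fgb* and *Fgg* had a Pearson r of 0.86 and a Spearman rho of 0.83 over 31 mice, and r was 0.82 without the 2 mice farthest from the median. The r was 0.70 for *Fga* and *Fgg* (rho 0.65, 0.61 without 2 mice) and 0.58 for *Fga* and *Fgb* (rho 0.52, 0.47 without 2 mice). In permutation tests of these 3 relations the adjusted p was 3e-05, 6e-05 and 0.0006 for r and 3e-05, 0.0002 and 0.003 for rho. Depth and the hepatocyte share of each library are common to all 3 chains.

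**Figure D3:**
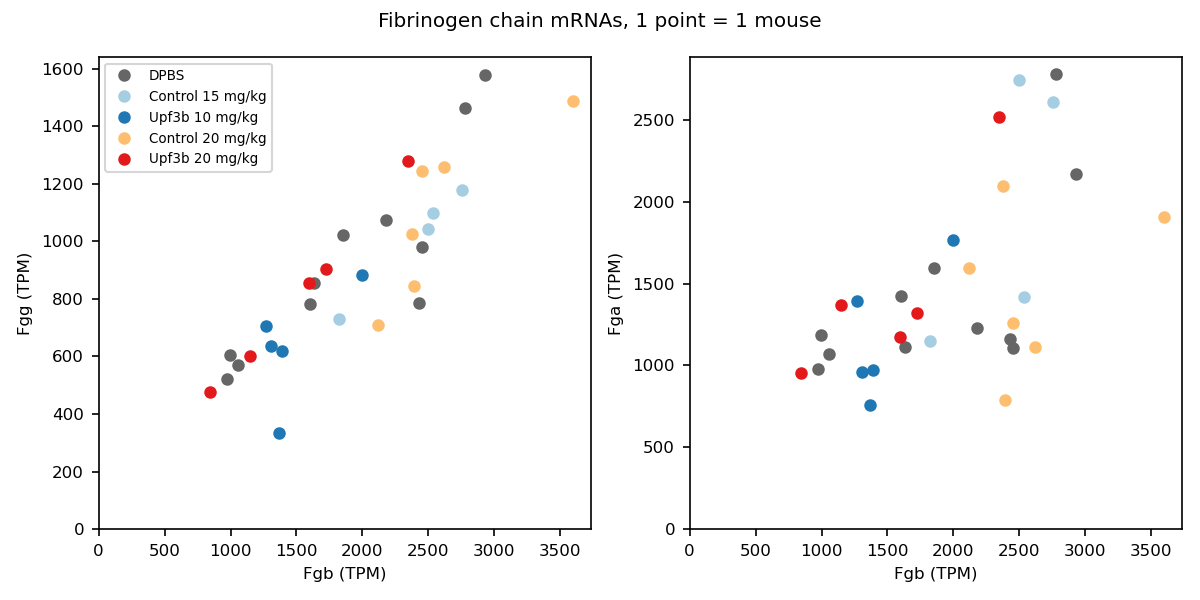
TPM of *Fgb* on the x axis against *Fgg* (left) and *Fga* (right) on the y axis, 1 point per mouse, coloured by group. *Fgg* rises with *Fgb* more tightly than *Fga* does, and the mouse with the lowest *Fgg*, 333 TPM, is the library labelled replicate 3 of *Upf3b*-GalNAc-ASO at 10 mg/kg.

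Among the inhibitors, *Serpind1*, heparin cofactor II, was 274, 229, 123, 242 and 280 TPM at 10 mg/kg of *Upf3b*-GalNAc-ASO and 384, 411, 407 and 369 TPM in its controls. It did not overlap there, nor did *F2* or *C8g*, as for 2.73% of all genes in that direction, but its log2FC of -0.86 (SE 0.30) had an adjusted p of 0.207 and was -0.31 (SE 0.28) at 20 mg/kg. *F2* had -0.66 (SE 0.31, adjusted p = 0.320) and -0.36 (SE 0.23, adjusted p = 0.405), and *Serpinc1* had -0.54 (SE 0.30, adjusted p = 0.382) and -0.19 (SE 0.21, adjusted p = 0.671). *Plg*, the precursor of plasmin, was between 474 and 1232 TPM in controls at 20 mg/kg and 1629, 1187, 1226, 1119 and 1688 TPM with *Upf3b*-GalNAc-ASO. The log2FC of *Plg* was 0.81 (SE 0.25, adjusted p = 0.0831) at 20 mg/kg and 0.68 (SE 0.23, adjusted p = 0.0744) over both, and without the library labelled replicate 3 at 10 mg/kg the adjusted p over both was 0.00532. Its median was 1614 TPM in DPBS-treated mice and 879 and 835 TPM in the control ASO groups. Of the other vitamin K-dependent genes, *F10* was -0.24 and -0.30 and none passed the test.

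Of 6 tested genes at the start of complement, 3 had a positive and 3 a negative log2FC in each dose pair. *Masp2*, a lectin pathway protease, had 0.42 (SE 0.31) and 0.56 (SE 0.26, adjusted p = 0.255), and *Mbl2* had 0.00 and 0.19. *C3* had -0.24 and 0.27, with 95% intervals from -0.86 to 0.39 and from -0.19 to 0.72, and *Serping1* had -0.55 and -0.05. *Cfb*, *C2* and *C4b* share 75.5%, 40.2% and 48.3% of their 31-base words with *Gm20547* or *C4a*, and *C1s1* shares 33.5% with *C1s2*, so their values are uncertain.

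In terminal complement, *C8b* had the largest log2FC of any member at 10 mg/kg, 1.33 (SE 0.42, adjusted p = 0.171), and -0.07 (SE 0.24) at 20 mg/kg. Its values at 10 mg/kg were 237, 525, 1140, 847 and 353 TPM against 227, 163, 242 and 223 TPM, where the highest came from the library labelled replicate 3, and without it the log2FC of *C8b* was 0.95 (adjusted p = 0.171), whereas without replicate 1 the adjusted p was 0.0128. *C9* had 0.88 (SE 0.34, adjusted p = 0.234) and -0.13 (SE 0.29). *C8a* was -0.60 and -0.63, or -0.61 (SE 0.21, adjusted p = 0.0770) over both. *C6* was 0.44 (SE 0.59) at 10 mg/kg and -1.63 (SE 0.47, adjusted p = 0.0662) at 20 mg/kg, the lowest of all members. At 10 mg/kg, the 3 treated males had 106, 71.4 and 52.1 TPM of *C6*, below both control males at 148 TPM. The 2 treated females had 6.17 and 16.7 TPM against 2.73 and 0.652 TPM, values that rest on 19, 17, 16 and 2 reads, and the 16.7 TPM is from the library labelled replicate 3. The 3 males at 20 mg/kg of *Upf3b*-GalNAc-ASO had 22.8, 33.2 and 38.6 TPM of *C6* against 151, 102.8 and 107.5 TPM in control males. The 2 females had 0.213 and 5.13 TPM, of which the first is under 3 reads, against 4.13, 13.5 and 2.84 TPM.

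The difference between the effects at 20 and at 10 mg/kg was tested directly. It passed for 0% of 9797 genes, 799 of which had an unadjusted p under 0.05, and for 0 members. *C6* had the lowest difference, -2.10 (SE 0.76, adjusted p = 0.478), and for *Klkb1* it was -0.40 with a 95% interval from -1.54 to 0.74. Likewise, the effect of *Upf3b*-GalNAc-ASO differed between males and females for 0.0102% of genes and 0 members, and the lowest value was again that of *C6*, -1.74 (SE 0.79, unadjusted p = 0.0369).

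DPBS-treated mice gave a second reference. No member differed between either control ASO group and DPBS, where 0% of 8971 and 0% of 9140 genes did (644 and 905 at an unadjusted p under 0.05). No member passed in *Upf3b*-GalNAc-ASO against DPBS either, where 0.376% of genes did at 10 mg/kg and 1.13% at 20 mg/kg. These comparisons share the DPBS-treated mice, and those above share the treated mice with them. *Klkb1*, with 25.8 to 116 TPM and a median of 52.6 in DPBS, was -0.82 (SE 0.40) and -1.10 (SE 0.36, adjusted p = 0.169) against DPBS, and 0.16 and 0.20 in the control ASO groups. *Fgb* was -0.24 and -0.25 against DPBS, while the control ASO groups were 0.44 and 0.55 above it, so that the *Upf3b*-GalNAc-ASO groups lay nearer to DPBS than to the control ASO. *F5* was -0.25 and -0.70 against DPBS with controls at 0.43 and 0.33. *Kng1* was 0.56 and 0.62 against DPBS with controls at 0.20 and -0.26. *Plg* was -0.19 and -0.12 against DPBS, and in the control ASO groups -0.69 and -0.91 (SE 0.30, adjusted p = 0.412). *C8b* was 0.58 (SE 0.52) and -0.05 against DPBS at 10 and 20 mg/kg, with controls at -0.58 (SE 0.55) and 0.02.

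The second question was how the members differed between the 16 males and 15 females, with the group as a covariate. Terminal complement stood out, with 4 of 5 genes higher in males, *C6*, *C8a*, *C8b* and *C9*, where 1.08% of 9840 genes were higher. *C3* and *F10* were lower in males, where 1.3% of genes were lower. The other 30 tested members did not pass. The median log2FC of the 36 members was -0.07, against -0.03 for all genes.

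**Figure D4:**
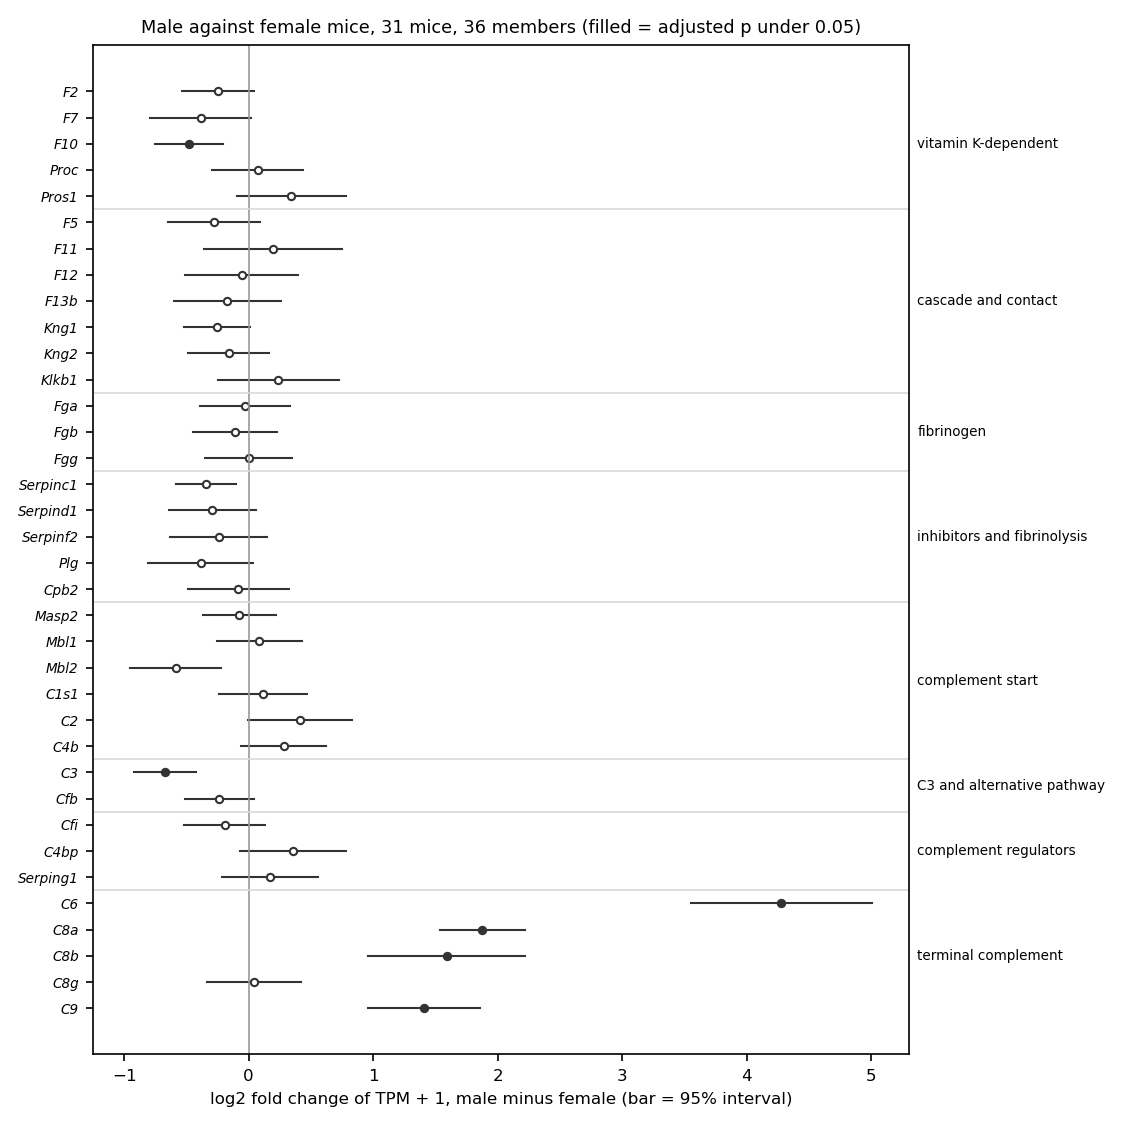
The x axis gives the log2FC of TPM + 1 of 16 males against 15 females for each of 36 members, with its 95% interval, grouped by role, and filled points have an adjusted p under 0.05. *C6* lies at 4.28 and *C8a*, *C8b* and *C9* between 1.41 and 1.88, while *C8g* lies at 0.04.

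*C6* encodes the protein that binds C5b and starts the membrane attack complex. It was between 22.8 and 151 TPM in males, with a median of 106.6, and between 0 and 17.9 TPM in females, with a median of 2.84. No male overlapped with any female, as for 0.173% of genes, and the lowest males were those given 20 mg/kg of *Upf3b*-GalNAc-ASO. The log2FC was 4.28 (SE 0.36, adjusted p = 1.59e-11), or 19.4-fold on the TPM + 1 scale. The ratio of male to female means was 16.97 in DPBS, 87.5 and 17.6 in the control ASO groups and 6.69 and 11.8 in the *Upf3b*-GalNAc-ASO groups at 10 and 20 mg/kg, with female means from 1.69 to 11.4 TPM.

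*C8a* and *C8b* encode the alpha and beta chains of C8 and are neighbours on chromosome 4, *C8b* from 104766317 to 104804548 on the plus strand and *C8a* from 104815679 to 104876398 on the minus strand. *C8a* was between 144.0 and 390.1 TPM in males (median 241.9) and between 42.5 and 110.7 TPM in females (median 70.3), again with no overlap, a log2FC of 1.88 (SE 0.17, adjusted p = 5.45e-11). Its male to female ratio lay between 2.65 and 4.90 in the 5 groups. *C8b* was between 163 and 1392 TPM in males (median 649) and between 47.7 and 1140 TPM in females (median 174), a log2FC of 1.59 (SE 0.31, adjusted p = 0.00117). The sexes overlapped for *C8b*, and its ratio was 4.37 in DPBS, 5.13 and 3.32 in the control and *Upf3b*-GalNAc-ASO groups at 20 mg/kg, but 0.902 in Control-GalNAc-ASO at 15 mg/kg and 0.835 in *Upf3b*-GalNAc-ASO at 10 mg/kg. The 0.835 rests on the library labelled replicate 3, the female at 1140 TPM. The other female of that group had 237 TPM, below the males at 525, 847 and 353 TPM. *C8g*, the gamma chain, on chromosome 2 (25498651 to 25501719), was 60.7 ± 22.2 TPM in males and 59.4 ± 19.5 TPM in females, and its log2FC of 0.04 had a 95% interval from -0.34 to 0.42.

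*C9*, which forms the wall of the pore, was between 100.1 and 270.1 TPM in males (median 193) and between 18.4 and 176.4 TPM in females (median 64.2). The log2FC was 1.41 (SE 0.22, adjusted p = 2.34e-05). Within a group, every male was above every female in all groups other than *Upf3b*-GalNAc-ASO at 10 mg/kg. There the library labelled replicate 3, a female, had 176.4 TPM, above 1 male at 165.7 TPM. The other female had 131.2 TPM, below every male of the group. *C6* and *C9* lie on the same chromosome, 15, from 4727175 to 4814967 and from 6445327 to 6498751. The remaining terminal genes are not members. *Hc*, which encodes C5, was 588 ± 133 TPM in males and 459 ± 131 TPM in females (log2FC 0.41, SE 0.16, adjusted p = 0.248), and *C7* was listed at 0 in all 31 mice.

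**Figure D5:**
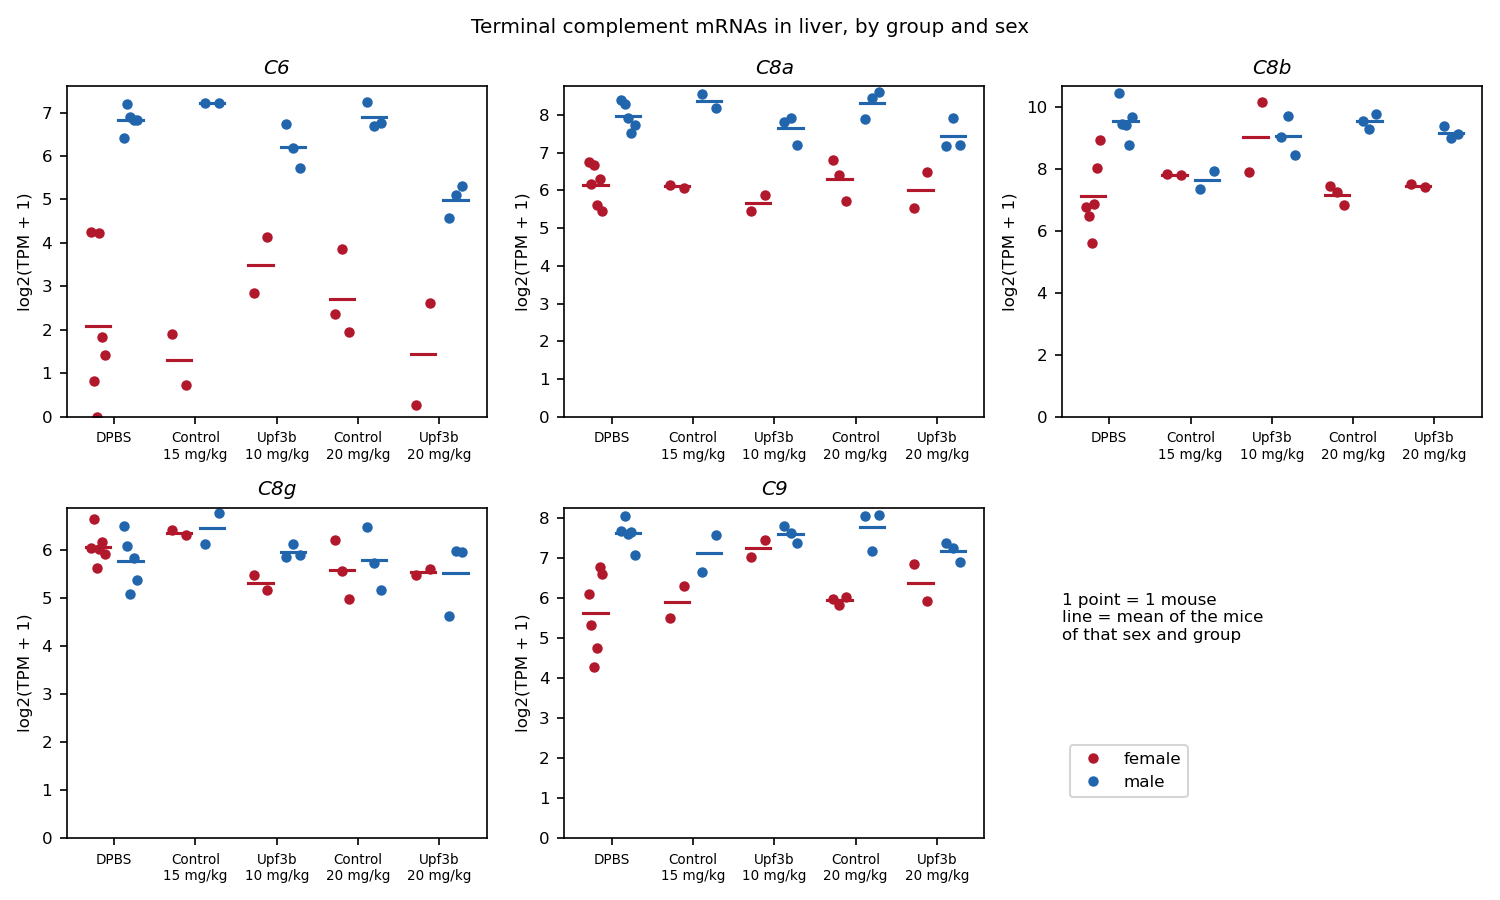
The y axis gives log2(TPM + 1) of *C6*, *C8a*, *C8b*, *C8g* and *C9* in each mouse of the 5 groups, females in red and males in blue, with lines at the means. *C6* and *C8a* separate the sexes in every group, *C8b* does so only in the groups at 20 mg/kg, and *C8g* does so only with *Upf3b*-GalNAc-ASO at 10 mg/kg. In that last group the higher female point of *C8b* and of *C9* is the library labelled replicate 3.

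*C3*, the centre of the cascade, was higher in females, between 1537 and 4645 TPM with a median of 3341, than in males, between 1781 and 2928 TPM with a median of 2087. The log2FC was -0.67 (SE 0.12, adjusted p = 0.000309). All females were above all males in every group other than *Upf3b*-GalNAc-ASO at 10 mg/kg, where the library labelled replicate 3 had the lowest *C3* of all. *F10*, factor X, was 382 ± 91.7 TPM in males and 532 ± 113 TPM in females (log2FC -0.48, SE 0.13, adjusted p = 0.0428), a call that was lost without any 1 of 21 of the 31 mice. *Mbl2* had a log2FC of -0.59 (SE 0.18, adjusted p = 0.0791). The fibrinogen chains lay between -0.11 and 0.00. Among marker genes, *Alb* was lower in males, where 1 of the 9 hepatocyte markers had a positive log2FC and their median was -0.14. *Alas2*, of red cells, was higher in males. It was the only 1 of 5 red cell markers with a positive log2FC, with a median of -0.54 over the 5. The part of cell content in these differences was not tested.

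Other genes of the pathways were examined from lists drawn up by function. Over both dose pairs, 3.64% of 9797 genes were lower and 2.4% higher. Between the sexes, 1.08% of 9840 genes were higher in males and 1.3% lower. Single calls in such short lists therefore cannot be read as an effect on a pathway. Of 24 further genes of coagulation and fibrinolysis, 13 were tested over both dose pairs, and *Plau*, urokinase, was higher (log2FC 1.66, SE 0.34, adjusted p = 0.00322) and *Serpine2*, an inhibitor of thrombin and urokinase, lower (-1.80, SE 0.40, adjusted p = 0.00732). *Plau* was 39.9 ± 26.6 TPM against 11.7 ± 8.05 TPM at 20 mg/kg, and *Serpine2* was 5.77 ± 4.40 TPM against 23.5 ± 21.2 TPM. In DPBS-treated mice *Plau* was 26.4 ± 21.5 TPM, from 3.34 to 73.8, and *Serpine2* was 35.96 ± 29.3 TPM, and against DPBS at 20 mg/kg *Serpine2* passed the test (-2.36, SE 0.50, adjusted p = 0.0141) and *Plau* did not. *Serpine2* was also higher in males (1.52, SE 0.32, adjusted p = 0.00209). Of 8 genes of the vitamin K cycle and of the export of clotting factors, 7 were tested and 1 was lower, *Mcfd2*, the partner of the cargo receptor for factors V and VIII (-0.79, SE 0.22, adjusted p = 0.0282), which was 72.2 ± 45.8 TPM in DPBS and 48.0 ± 16.1 TPM against 79.2 ± 18.4 TPM at 20 mg/kg.

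Of 27 further complement genes, 21 were tested and 0 differed with *Upf3b*-GalNAc-ASO over both dose pairs, while *Clu*, clusterin, an inhibitor of the terminal pathway, was higher in males (0.48, SE 0.13, adjusted p = 0.0430). Among 16 acute-phase genes, which liver cells raise in inflammation, 15 were tested and *Hpx*, hemopexin, was higher with *Upf3b*-GalNAc-ASO, at 2172 ± 1214 TPM against 592 ± 117 TPM at 20 mg/kg (1.75, SE 0.29, adjusted p = 0.00217), with 952 ± 324 TPM in DPBS, against which it did not pass. *Itih4*, another gene of that list, was lower in males (-0.62, SE 0.17, adjusted p = 0.0438). Of 16 liver transcription factors that act on these genes, 0 of the 14 tested over both dose pairs and 0 of the 15 tested between the sexes passed.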

How the data were processed

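Liver RNA of 31 mice was sequenced. The authors quantified transcripts with Salmon 0.7.2 against mouse Ensembl cDNA (GRCm38.p4 per the labels) and deposited TPM per gene symbol, 1 table per mouse. The labels name a 3′ tag kit, and the study's methods another. Of 31198 rows, 26 whose symbols had become dates were left out. Between 69.7% and 81.5% of values per mouse were whole multiples of 1 step (tolerance 0.02 reads, 4% by chance), which gave the reads per mouse; no count test was used. Intervals from reads cover counting error only.

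Groups followed the labels. limma 3.58.1 (R 4.3.3, trend and robust) was run on log2(TPM + 1), adjusting for sex, on genes whose median reached 5 TPM in 1 group or more, with Benjamini-Hochberg adjustment over all genes tested and a threshold of 0.05. Fold changes are on that scale and understate changes of low genes. The labels do not tie mice to litters or cages, and p-values measure the spread between these mice. Genes under the filter were compared by permutation tests of log2(TPM + 1), without adjustment for sex between treatment groups. The fit was tested on simulated data. Named genes were *F9*, members past the threshold in any comparison, the 3 highest and 3 lowest fold changes of each dose pair and the largest share of reads in each role. Members and lists were chosen with earlier results of these data known. Shared 31-base words came from transcripts, positions from GENCODE (GRCm38). No 2 mice had near-identical values.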

Additional observations from a re-analysis of the deposited data

Results flagged for a closer look

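A single mouse stood apart from the rest of its group (Dixon's test at 95%) in 11 of 84 sets of values of the named genes in the ASO groups. DPBS-treated mice were not among these sets. Chance gives about 1 in 20 for independent, normally distributed values. These sets pooled the sexes and shared the same mice, so that rate is only a rough guide. In 3 of the 11 every other mouse of the group was at 0, so that any read would stand apart, and those 3 cannot be set against that rate. Among the clotting genes, *F9* was 0.827 TPM, 3 reads, in Control-GalNAc-ASO replicate 3 at 15 mg/kg, where the others were at 0, and 6.09 TPM in replicate 5 at 20 mg/kg. *F11* was 58.8 TPM in *Upf3b*-GalNAc-ASO replicate 5 at 10 mg/kg, above the next mouse at 40.1 TPM. *Fgb* was 3597 TPM in Control-GalNAc-ASO replicate 1 at 20 mg/kg and 1997 TPM in *Upf3b*-GalNAc-ASO replicate 4 at 10 mg/kg. Both *Fgb* values are the highest of their groups and lie on opposite sides of the comparison.

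Of the inhibitors and fibrinolysis, *Serpind1* was 638 TPM in Control-GalNAc-ASO replicate 4 at 20 mg/kg, and *Plg* was 3993 TPM in *Upf3b*-GalNAc-ASO replicate 1 at 10 mg/kg, where the next mouse had 1178 TPM. Of complement, *Mbl2* was 1228 TPM in Control-GalNAc-ASO replicate 1 at 15 mg/kg. *C5ar1* was 6.61 TPM in Control-GalNAc-ASO replicate 1 at 20 mg/kg, 0.249 TPM, 1 read, in *Upf3b*-GalNAc-ASO replicate 2 at 10 mg/kg and 3.49 TPM, 17 reads, in replicate 6 at 20 mg/kg, with all others of both groups at 0. None of these is the library labelled replicate 3 of *Upf3b*-GalNAc-ASO at 10 mg/kg, the one with the fewest reads.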

How the results depend on the processing

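No result turned its direction past the threshold under any alternative. *C6*, *C8a*, *C8b* and *C9* stayed higher in males under all 11 other settings and without any 1 mouse. At 10 mg/kg, array weights gave 1 member higher, *C8b* (adjusted p = 0.0461), and 1 lower, *Fgb* (adjusted p = 0.0403), and leaving out 1 mouse gave 0 to 1 higher. At 20 mg/kg, the number higher was 1 with a pseudocount of 5 TPM or all 31 mice in 1 fit and 2 with median-of-ratios scaling, and 0 to 2 without 1 mouse. The number lower was 2 with a pseudocount of 5 TPM or quantile normalization. It was 0 with a pseudocount of 0.5 TPM, no filter, a median of at least 1 TPM, plain eBayes, array weights, all 31 mice in 1 fit or without mice under 1500000 reads (chosen after seeing the data), and 0 to 1 without 1 mouse. The members' median there was 0.0139 with median-of-ratios scaling.

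Over both dose pairs, the number higher was 0 with plain eBayes, 4 with array weights and 3 without mice under 1500000 reads, and the number lower was 5 with array weights. Without 1 mouse they were 0 to 3 and 2 to 5. The members' median difference between the doses was 0.00262 to 0.33 without 1 mouse, lowest without the library labelled *Upf3b*-GalNAc-ASO replicate 3 at 10 mg/kg. Against DPBS, array weights gave 2 members higher and 3 lower in Control-GalNAc-ASO at 15 mg/kg, and 1 higher in *Upf3b*-GalNAc-ASO at 10 mg/kg. Between the sexes, the number lower was 1 with a median of at least 1 TPM, plain eBayes, median-of-ratios scaling or quantile normalization, 4 with array weights and 1 to 3 without 1 mouse. In DPBS-treated mice alone the members' median was -0.29. Member counts under these other settings are given without the shares of all genes called under them. They cannot be read as particular to the members. The cause of these changes was not tested.

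Mice with equal replicate numbers had a mean correlation of -0.11 in the lower dose pair (4 such couples) and -0.02 in the higher (5 couples). Mice with other numbers had 0.03 and 0.005. So few couples cannot decide whether equal numbers pair the mice. With a replicate block, 0 members were lower at 20 mg/kg, 0 higher and 1 lower over both dose pairs, and 0 lower in males, where *C3* had an adjusted p of 0.131, and the median of the difference between sexes in the effect was -0.21. The block gave 39 genes higher and 56 lower at 10 mg/kg against 11 and 16 without it, 17 and 28 against 87 and 149 at 20 mg/kg, and 62 and 126 against 235 and 357 over both. Other settings gave 1 to 224 genes higher and 4 to 164 lower at 10 mg/kg. Few mice per sex and group, and shallow libraries, limit what could be detected for *F9*, *Masp1* and *C5ar1*.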
